A study of Homo sapiens with 15 samples.

Results

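The MAGE family genes examined here were 7 genes chosen by name, MAGEA3, MAGEA6, NDN, MAGED1, MAGED2, MAGEH1 and NSMCE3, and this choice was made with their measured expression in these libraries known, so the values below describe them, no p-value is given for them, and counts of calls among them are a description that supports nothing. Of the 7, 6 had a row in the expression tables, 6 among the 16188 genes of 786O and 4 among the 16296 genes of CAKi-1. MAGEA6 and NDN had a row in 786O alone, and MAGEA3 had no row in the tables analysed here. No deposited value was exactly 0, so a gene at 0 in any library of a line may have been left out. A missing row therefore does not tell whether a gene was on or off. RNA-seq was done on 15 libraries of 2 human clear cell renal cell carcinoma (ccRCC) lines to compare transcription with and without ANGPTL4, a secreted protein that inhibits lipoprotein lipase. CAKi-1, which has wild-type VHL, gave 4 WT and 5 A4KO libraries, and 786O, which has mutant VHL, gave 3 WT and 3 A4KO libraries. A4KO cells of both lines were combined from single clones that had lost ANGPTL4 mRNA after CRISPR-Cas9 editing, and WT cells of 786O were combined from clones that had kept it. For CAKi-1 the series describes WT cells made in the same way, whereas the methods of the study name the parental cells as WT, because every clone had lost ANGPTL4, so WT cells of that line may not have been cloned. Nothing states that the replicates came from separate cultures, so the p-values given for other genes measure the spread between these libraries, and a difference between pools of clones cannot be told apart from an effect of ANGPTL4. The lists of other genes were also written with earlier results of these data known, so their p-values do not come from an unselected choice.

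MAGE proteins share a MAGE homology domain, through which many of them bind RING-type ubiquitin ligases and alter what these ligate. Type I members such as MAGE-A are cancer-testis genes, which are active in the germ line, silenced with DNA methylation in most adult tissues and switched on again in many tumors. Type II members such as MAGE-D are broadly expressed, and NDN, which encodes necdin, is an imprinted gene of the Prader-Willi region on chromosome 15 that is normally read from the paternal copy.

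The first sequences shown are those that limit what the MAGEA6 value can mean. In GENCODE release 44 (hg38), MAGEA3 (ENSG00000221867.9, X:152698767-152702347, plus strand) and MAGEA6 (ENSG00000197172.11, X:152766136-152769716, minus strand) lie 63788 bases apart on the X chromosome, each with 3 exons. Their coding sequences, 942 bases each, were 98.1% identical and differed at 18 bases, and the longest stretch with no difference ran over 308 bases. The window below covers bases 573 to 632 of both coding sequences, at X:152701405-152701464 on the plus strand for MAGEA3 and at X:152767019-152767078 on the minus strand for MAGEA6, with the 4 bases that differ in capitals.
MAGEA3: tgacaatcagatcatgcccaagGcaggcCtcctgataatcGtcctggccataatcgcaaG
MAGEA6: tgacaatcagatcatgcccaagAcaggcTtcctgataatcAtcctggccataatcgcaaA
Kallisto, with which the authors assigned reads, matches short words of sequence to transcripts. Of the 31-base words in the MAGEA6 transcript, 26.4% were found in the transcripts of no other gene and 67.6% were shared with MAGEA3. For MAGEA3, 28.4% were its own. The value of MAGEA6 therefore rests on few distinguishing words, and reads of MAGEA3 and MAGEA6 cannot be fully told apart. For the other members this limit was small, since 97.1% of the words of NDN, 96.1% of NSMCE3, 98.9% of MAGED2, 99.6% of MAGED1 and 100% of MAGEH1 were their own.

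**Figure D1:**
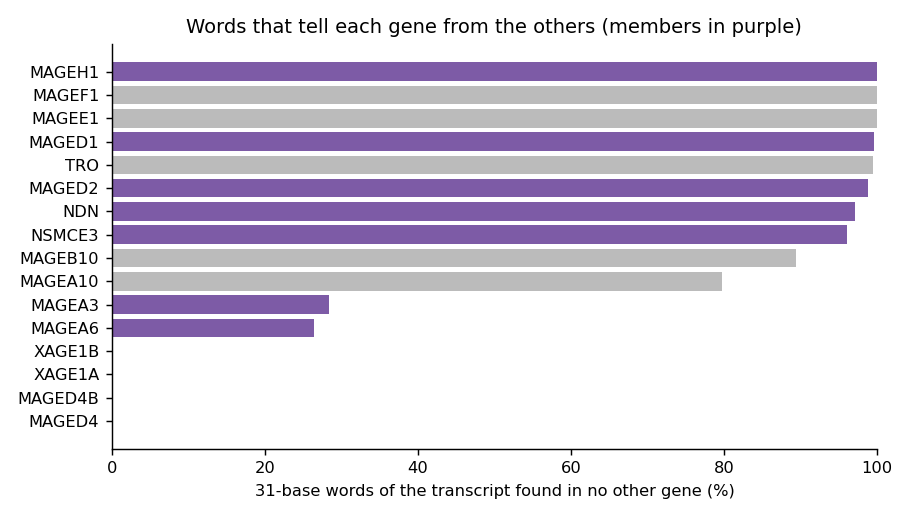
Share of the 31-base words of each canonical transcript that were found in the transcripts of no other gene (horizontal axis, percent), 1 bar per gene, with the 7 members in purple and other genes in grey. MAGEA3 and MAGEA6 reach 28.4% and 26.4%, while MAGED4, MAGED4B, XAGE1A and XAGE1B have 0% because each has a copy that holds all of its words.

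The sequences before the starts of the genes are shown because methylation of CG pairs there is known to accompany the silencing of MAGE-A genes and of the imprinted copy of NDN. Methylation was not measured here. In the RefSeq windows (GRCh38.p14), of which 6 of the 7 members had an entry, the 250 bases before MAGEA3 and MAGEA6 were identical to each other and were found before no other gene. The window of MAGEA6 (X:152769690-152769939, minus strand) and that of NDN (15:23687306-23687555, minus strand) are printed with CG pairs in capitals.
MAGEA6 and MAGEA3: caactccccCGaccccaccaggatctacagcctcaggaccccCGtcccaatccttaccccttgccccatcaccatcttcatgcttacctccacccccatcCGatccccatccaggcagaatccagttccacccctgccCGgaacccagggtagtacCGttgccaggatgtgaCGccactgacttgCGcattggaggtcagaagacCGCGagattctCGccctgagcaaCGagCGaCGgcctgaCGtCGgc
NDN: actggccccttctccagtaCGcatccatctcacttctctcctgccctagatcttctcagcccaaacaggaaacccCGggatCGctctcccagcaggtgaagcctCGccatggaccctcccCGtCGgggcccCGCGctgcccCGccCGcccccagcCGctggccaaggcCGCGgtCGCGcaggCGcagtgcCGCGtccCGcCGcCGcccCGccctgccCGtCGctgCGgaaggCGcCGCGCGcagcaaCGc
The MAGEA6 window held 15 CG pairs and that of NDN 30, against a median of 11 over 35116 promoters of the same length. As many as 30 were found in 12.4% of promoters, and 15 or more in 42.9%. The MAGEA6 window contained CCGGAA, the core bound by ETS factors, at 1 place with both strands searched, and 14.5% of promoters held it. The NDN window contained GGGCGG, a core bound by SP1, at 4 places with both strands searched and overlapping matches counted, and 42.6% of promoters held it. A match describes letters and not binding.

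**Figure D2:**
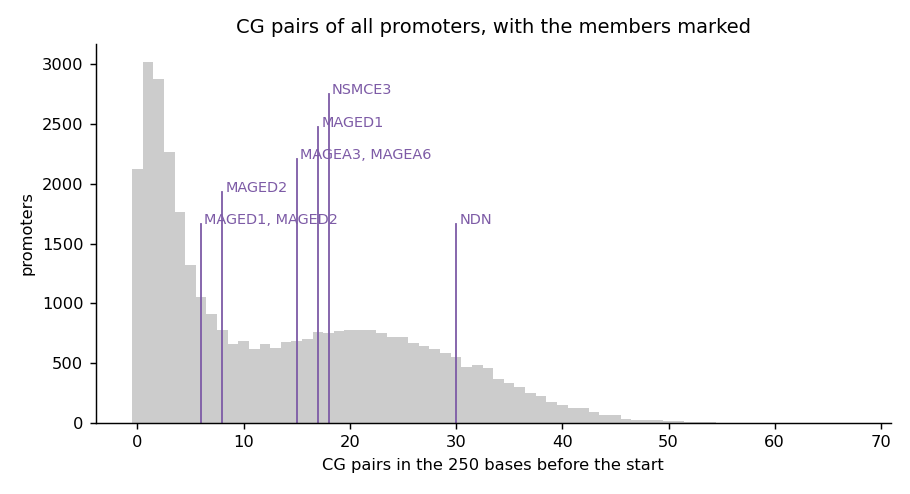
Number of promoters (vertical axis) by the number of CG pairs in the 250 bases before the start (horizontal axis), over 35116 RefSeq promoters in grey, with lines at the windows of the members. MAGED1 and MAGED2 have 2 windows each, and NDN, with 30 pairs, lies the farthest to the right of the members.

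In the 786O line, MAGEA6 was on in WT cells and close to the bottom of the measured range in A4KO cells. Its level in TPM, a measure of transcript abundance scaled by transcript length and by the total of the library, was 38.1, 38.0 and 39.7 in WT and 0.217, 0.258 and 0.287 in A4KO. All WT libraries lay far above all A4KO libraries, and the mean was 38.6 ± 0.930 TPM (SD, n = 3) in WT and 0.254 ± 0.036 TPM (SD, n = 3) in A4KO. The ratio of the means was 152, and the difference on the log2(TPM + 1) scale, which understates changes of low values, was -4.98 ± 0.04 (SE). Of all genes, 74.8% had a lower mean than MAGEA6 in WT and 12.9% in A4KO. MAGEA3 and MAGEA6 are known to bind the ligase TRIM28 and to direct it to substrates such as AMPK.

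NDN went the opposite way in the same 6 libraries. Its level was 0.359, 0.508 and 0.674 TPM in WT and 21.6, 21.5 and 18.97 TPM in A4KO, again with no overlap. The mean was 0.513 ± 0.157 TPM (SD, n = 3) in WT and 20.7 ± 1.49 TPM (SD, n = 3) in A4KO, a ratio of 40.3 and a log2 difference of 3.84 ± 0.09 (SE). Necdin binds E2F1 and other proteins of growth control. In A4KO cells NDN thus stood at a level similar to those of MAGEH1 and NSMCE3, while MAGEA6, next after MAGED1 and MAGED2 in WT, was no longer above 1 TPM. The labels state a depth of 3000000 reads for each library, but TPM keeps no count of the reads behind a value, so the precision of levels under 1 TPM is given only by the spread between libraries. If that depth is right, few reads stand behind such levels. The ratios of MAGEA6 and NDN may then be less precise than this spread.

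The other members were expressed in both lines in every library. MAGED1, a partner of the neurotrophin receptor NGFR, measured 243, 229 and 228 TPM in WT and 212, 215 and 226 TPM in A4KO of 786O, a log2 difference of -0.10 ± 0.05 (SE) between groups that did not overlap. MAGED2, which supports the salt transporters SLC12A1 and SLC12A3 in the kidney, measured 222, 244 and 246 TPM in WT and 235, 241 and 232 TPM in A4KO, and the groups overlapped. These were the highest of the family, above 96.1% and 96.3% of all genes in WT.

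MAGEH1, a small single-exon member, was higher in A4KO of 786O. It measured 12.8, 12.6 and 12.5 TPM in WT and 23.4, 23.0 and 21.5 TPM in A4KO, a log2 difference of 0.79 ± 0.04 (SE). NSMCE3, a subunit of the SMC5/6 complex that binds NSMCE1, measured 15.7, 15.7 and 14.8 TPM in WT and 21.8, 22.9 and 22.3 TPM in A4KO, a log2 difference of 0.51 ± 0.04 (SE). Neither gene's groups overlapped. With neighbouring genes taken as the baseline, the difference of NSMCE3 was 0.38 and that of MAGEH1 was 0.87.

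Counted by a log2 difference of at least 1 together with an adjusted p of at most 0.05 (limma), 2 of the 6 members of 786O were called, MAGEA6 and NDN, where 7.62% of all genes were. The groups did not overlap for 5 of the 6, as for 66.9% of all genes. Because the members were picked with these values known, nothing is read from either share.

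In CAKi-1, the 4 members with a row were all on in every library and higher in A4KO on average, by less than 1 on the log2 scale. MAGED1 measured 229, 214, 210 and 228 TPM in WT and 319, 256, 242, 318 and 233 TPM in A4KO, and MAGED2 measured 246, 233, 220 and 229 TPM in WT and 372, 289, 290, 367 and 271 TPM in A4KO. Groups did not overlap for either gene. A4KO replicates 1 and 4 stood above the other A4KO libraries for both, and these libraries stand apart over the whole table, with a median difference between 0.202 and 0.232 in log2 to the other A4KO libraries, against 0.079 between themselves. With all libraries the log2 difference was 0.30 ± 0.11 (SE) for MAGED1 and 0.44 ± 0.10 (SE) for MAGED2, and with A4KO replicates 2, 3 and 5 alone it was 0.15 and 0.29. With neighbouring genes taken as the baseline, it was 0.19 for MAGED1 and 0.37 for MAGED2. Quantile normalization moved MAGED1 the other way, to a log2 difference of 0.40.

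MAGEH1 in CAKi-1 measured 6.69, 7.11, 6.18 and 6.88 TPM in WT and 10.3, 9.46, 8.40, 9.67 and 7.93 TPM in A4KO, with no overlap. The log2 difference was 0.39 ± 0.08 (SE), and 0.31 without A4KO replicates 1 and 4. NSMCE3 measured 13.1, 12.5, 13.3 and 15.1 TPM in WT and 16.1, 15.96, 16.5, 14.4 and 14.5 TPM in A4KO. WT replicate 4 lay above the lowest A4KO libraries, so the groups overlapped, and the log2 difference was 0.19 ± 0.07 (SE). Of the 4 members, 0 were called, where 3.33% of all genes were, and 3 did not overlap, as for 35.9% of all genes, and nothing is read from these shares either.

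Set side by side without a test, because the tables were made per line, MAGED2 and MAGED1 were the highest members in both lines. They lay at 232 ± 10.9 and 220 ± 9.68 TPM (SD, n = 4) in CAKi-1 WT and 237 ± 13.4 and 233 ± 8.41 TPM (SD, n = 3) in 786O WT. Within each line their WT ranges overlapped. Library by library, MAGED2 lay above MAGED1 throughout CAKi-1 and in every A4KO library of 786O. It lay below MAGED1 in WT replicate 1 of 786O (222 against 243 TPM), so their order in 786O WT was not resolved. NSMCE3 lay at 13.5 ± 1.11 TPM (SD, n = 4) in CAKi-1 WT and 15.4 ± 0.490 TPM (SD, n = 3) in 786O WT. MAGEH1 lay at 6.72 ± 0.395 and 12.6 ± 0.163 TPM.

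**Figure D3:**
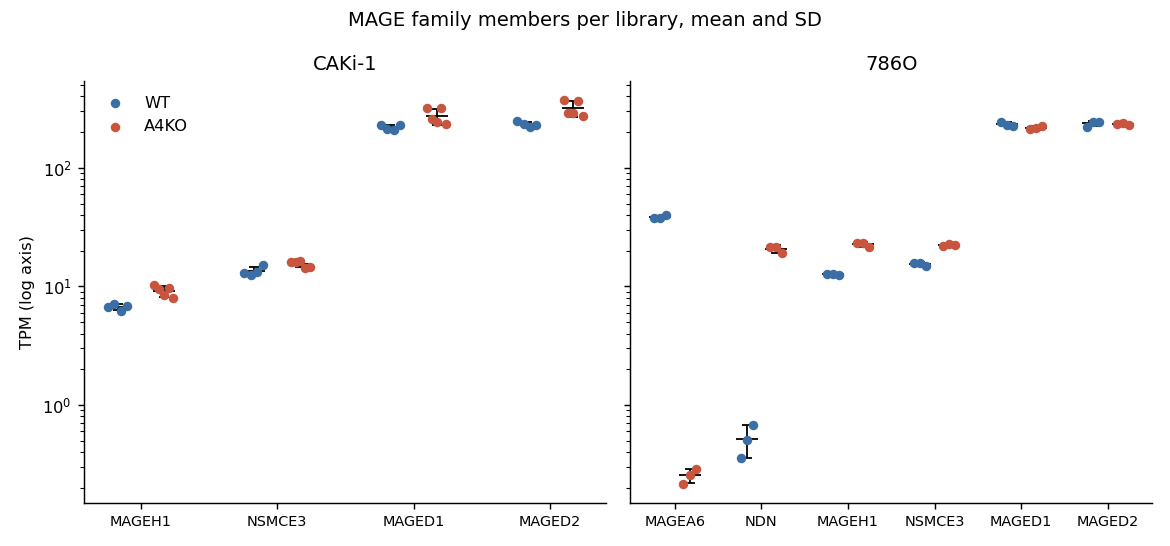
TPM of each member on a log axis (vertical) in WT (blue) and A4KO (red) libraries of CAKi-1 (left) and 786O (right), with 1 point per library and bars for the mean and SD. MAGEA6 falls between 38.0 and 39.7 TPM in 786O WT and between 0.217 and 0.287 TPM in A4KO, NDN shows the reverse order, and the other members stay above 6 TPM in every library.

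Of the 37 family genes looked for, 13 had a row in either line, and 24 had none. Outside the members, 6 were measured in CAKi-1 and 7 in 786O. By limma 0 of them were called in either line, while an adjusted p of at most 0.05 alone was passed by 3 of 6 in CAKi-1, all higher in A4KO (MAGEF1, MAGEE1 and MAGED4B, the last not separable from its copy), and by 3 of 7 in 786O, 1 higher and 2 lower. Over all genes 39.0% and 61.0% passed by the adjusted p alone. At an unadjusted p under 0.05 the counts were 4 of 6 and 3 of 7, where 48.3% and 64.5% of all genes passed.

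MAGEF1, which pairs with the ligase NSMCE1 to mark the iron-sulfur assembly factor MMS19, rose in both lines. It measured 27.5, 27.6, 27.3 and 28.9 TPM in WT and 46.7, 46.2, 46.0, 47.1 and 41.3 TPM in A4KO of CAKi-1, a log2 difference of 0.69 ± 0.05 (SE, limma adjusted p = 2.58e-05). In 786O it measured 22.9, 23.7 and 22.9 TPM in WT and 45.1, 46.0 and 46.2 TPM in A4KO, a log2 difference of 0.95 ± 0.03 (SE, limma adjusted p = 4.10e-06). No library of WT overlapped with A4KO in either line.

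TRO and MAGEE1 had log2 differences of opposite sign in the lines, and the difference between lines was not tested. TRO, which encodes trophinin, fell in 786O from 6.01 ± 0.670 to 2.61 ± 0.442 TPM (SD, n = 3), a log2 difference of -0.96 ± 0.11 (SE, limma adjusted p = 4.18e-04). It was called there without WT replicate 3 (-1.04), without A4KO replicate 1 (-1.05) and with 0.1 added to TPM in place of 1 (-1.18). In CAKi-1 it was 15.7 ± 1.01 TPM (SD, n = 4) in WT and 23.8 ± 8.11 TPM (SD, n = 5) in A4KO, where replicates 1 and 4, at 33.1 and 32.3 TPM, stood above the range of 16.9 to 18.5 TPM of the others. Its log2 difference was 0.52 ± 0.21 (SE, limma adjusted p = 0.0746), and without those libraries it was 0.19 (limma adjusted p = 0.0476), and without A4KO replicate 3 alone it was 0.62 (limma adjusted p = 0.0391). MAGEE1 rose in CAKi-1 from 0.046 ± 0.022 to 0.271 ± 0.041 TPM (log2 difference 0.28 ± 0.04, limma adjusted p = 0.00120) and fell in 786O from 2.73 ± 0.133 to 1.53 ± 0.183 TPM (log2 difference -0.56 ± 0.06, limma adjusted p = 3.80e-04). With 0.1 added to TPM in place of 1, its log2 difference in CAKi-1 was 1.35 and it was called.

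MAGED4 and MAGED4B share every word of sequence, so only their sum can be read. The summed level ran from 49.8 to 56.6 TPM in WT and from 59.8 to 94.9 TPM in A4KO of CAKi-1, with the highest values, 93.8 and 94.9 TPM, in replicates 1 and 4. In 786O the sum was 1.32 ± 0.106 TPM (SD, n = 3) in WT and 1.94 ± 0.539 TPM (SD, n = 3) in A4KO, and the groups overlapped. The separate values in CAKi-1, a log2 difference of 0.47 ± 0.15 for MAGED4B (limma adjusted p = 0.0323) and 0.40 ± 0.19 for MAGED4 (limma adjusted p = 0.118), do not show that the copies differ. With A4KO replicates 2, 3 and 5 alone they were 0.25 and 0.15. Leaving out any WT library or A4KO replicate 4 took MAGED4B to a limma adjusted p between 0.0602 and 0.0774, and leaving out A4KO replicate 5 took MAGED4 to 0.0161. MAGEA10 stayed under 0.1 TPM in every library of both lines, and MAGEB10, with a row in 786O alone, stayed under 0.25 TPM.

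**Figure D4:**
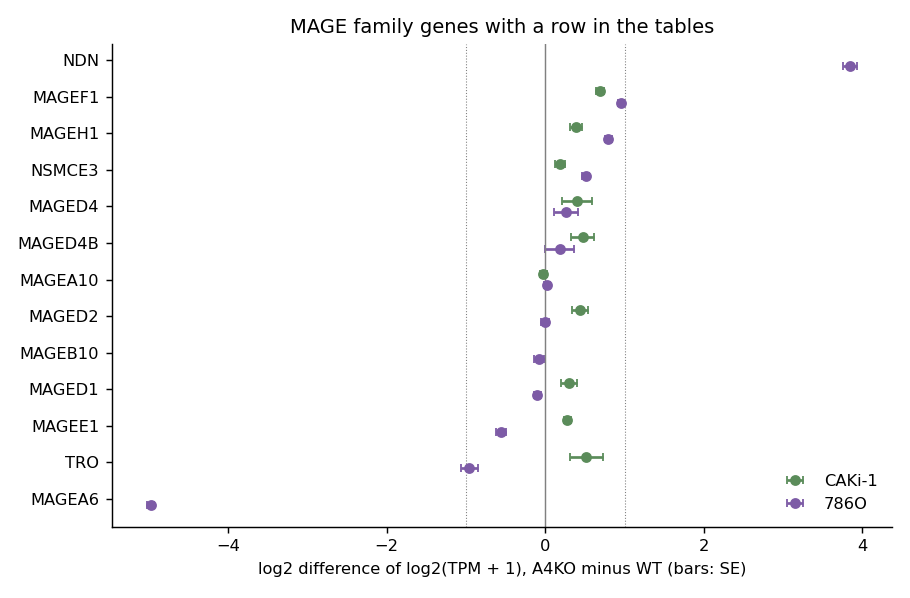
Log2 difference of log2(TPM + 1), A4KO minus WT, with its SE (horizontal axis) for the 13 family genes with a row, in CAKi-1 (green) and 786O (purple). Dotted lines mark a log2 difference of 1 in either direction, and only MAGEA6 at -4.98 and NDN at 3.84 lie beyond them.

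Among genes with a row, those next to MAGEA6 and NDN did not share their size of change in 786O. A neighbour at 0 in any library may have no row, so a complete switch could go unseen. MAGEA3, the copy of MAGEA6, could not be compared. Within 1 Mb of MAGEA6, 17 other genes had a row, of which 1 was called, DUSP9, a phosphatase of MAP kinases (0.645 to 3.54 TPM, log2 difference 1.46 ± 0.08, limma adjusted p = 1.47e-05). Their log2 differences ran from -0.42 to 1.46 with a median of 0.17. Within 1 Mb of NDN, 7 other genes had a row and 0 were called, with log2 differences from -0.06 to 0.58 and a median of 0.04. MKRN3, the nearest measured gene, itself imprinted and at -121.6 kb, measured 0.369 ± 0.247 TPM in WT and 0.376 ± 0.188 TPM in A4KO (SD, n = 3; limma adjusted p = 0.948). SNRPN, a paternally read gene farther along the cluster, was 96.2 ± 0.621 TPM in WT and 75.1 ± 3.77 TPM in A4KO of 786O, a log2 difference of -0.35 ± 0.05 (SE, limma adjusted p = 7.25e-04). MAGEL2 had no row in the tables analysed here.

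**Figure D5:**
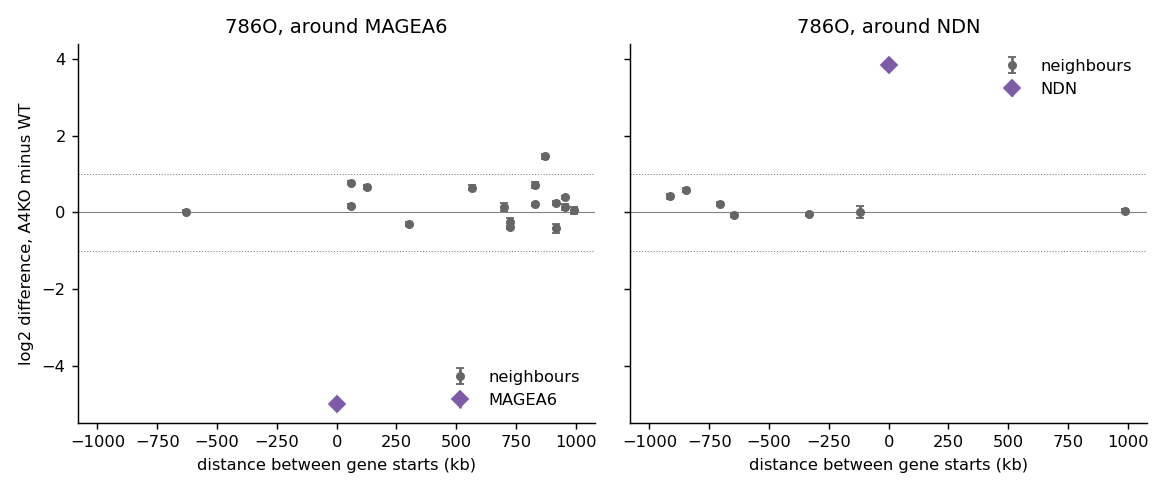
Log2 difference, A4KO minus WT, with its SE (vertical axis) of the genes of 786O within 1 Mb of MAGEA6 (left) and of NDN (right), by the distance between gene starts in kb (horizontal axis). The member itself, the purple diamond, lies at -4.98 or 3.84, and its neighbours lie between -0.42 and 1.46 or between -0.06 and 0.58.

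Of other cancer-testis genes, 8 of 50 had a row in 786O and 4 in CAKi-1. In 786O, XAGE1A and XAGE1B, copies with the same value in every library, fell from 5.02 ± 0.160 to 0.472 ± 0.118 TPM (SD, n = 3; log2 difference -2.04 ± 0.07, limma adjusted p = 2.74e-06). SSX2 rose from 0.216 ± 0.191 to 1.81 ± 0.537 TPM (log2 difference 1.20 ± 0.16, limma adjusted p = 9.71e-04), and summed with its near copy SSX2B the level ran from 0.300 to 0.792 TPM in WT and from 2.55 to 3.48 TPM in A4KO. PRAME, the highest of the list, measured 35.7 ± 1.76 TPM in WT and 30.2 ± 1.99 TPM in A4KO of 786O (log2 difference -0.23, limma adjusted p = 0.0166). By the adjusted p alone, 2 of 8 were higher and 3 lower in 786O. In CAKi-1 0 of the 4 were called, and 1 was lower by the adjusted p alone. Over all genes, 7.62% were called and 61.0% passed by the adjusted p alone in 786O, and 3.33% and 39.0% in CAKi-1. These shares stand beside the counts of every list here and below, and nothing is read from counts near them.

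Of 22 other imprinted genes, 13 had a row in 786O and 14 in CAKi-1. PEG10, a gene derived from a retrotransposon, fell in 786O from 202 ± 11.2 to 49.7 ± 3.27 TPM (SD, n = 3; log2 difference -2.002 ± 0.06, limma adjusted p = 2.73e-06) and rose in CAKi-1 from 58.6 ± 8.18 (SD, n = 4) to 292 ± 66.3 TPM (SD, n = 5; log2 difference 2.28 ± 0.17, limma adjusted p = 2.20e-05). CDKN1C, a cell cycle inhibitor, fell in 786O from 22.7 ± 0.304 to 1.47 ± 0.091 TPM (log2 difference -3.26 ± 0.04, limma adjusted p = 1.15e-07). IGF2, a growth factor, rose in CAKi-1 from 0.120 ± 0.105 to 20.5 ± 4.91 TPM (log2 difference 4.24 ± 0.15, limma adjusted p = 5.02e-07), and PHLDA2, a regulator of placental growth, fell there from 5.89 ± 0.768 to 2.07 ± 1.05 TPM (log2 difference -1.25 ± 0.28, limma adjusted p = 0.00705). The median over the list was -0.20 in 786O and 0.10 in CAKi-1, beside -0.03 and -0.01 over all genes, and by the adjusted p alone 2 were higher and 5 lower in 786O and 4 higher and 5 lower in CAKi-1. Of the genes of 15q11-q13, 1 was called, ATP10A, a lipid flippase, in CAKi-1 (3.27 to 1.06 TPM, log2 difference -1.06 ± 0.13, limma adjusted p = 3.44e-04). It also fell in 786O, short of a call (18.9 to 9.46 TPM, log2 difference -0.93 ± 0.05, limma adjusted p = 1.91e-05). By the adjusted p alone, 5 of 12 measured genes of the region were higher and 2 lower in 786O, and ATP10A was the 1 of 10 that passed in CAKi-1. Over all genes 61.0% passed so in 786O and 39.0% in CAKi-1. Without A4KO replicates 1 and 4, the log2 differences of ATP10A and PHLDA2 were -0.91 and -0.94, and without A4KO replicate 1 alone -0.95 and -0.99, short of the fold needed for a call.

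Of the ligases and partners of the family, TRIM31, a RING-type ligase, was called in 786O, from 0.293 ± 0.167 to 2.65 ± 0.244 TPM (log2 difference 1.503 ± 0.10, limma adjusted p = 4.10e-05), and 0 of 8 in CAKi-1. By the adjusted p alone, 5 of the 8 were higher and 3 lower in 786O, with a median log2 difference of 0.31, and 1 was higher and 2 lower in CAKi-1, with a median of -0.02. Over all genes 61.0% passed so in 786O and 39.0% in CAKi-1. TRIM27, LNX1 and USP7, also ligases or their partners, rose in 786O by log2 differences of 0.60, 0.76 and 0.35 (limma adjusted p = 2.73e-04, 1.90e-04 and 0.00252). TRIM28, the partner of MAGEA3 and MAGEA6, was 328 ± 28.6 TPM in WT and 256 ± 22.5 TPM in A4KO of 786O (log2 difference -0.36, limma adjusted p = 0.0120). PJA1, a ligase bound by MAGED1, fell in 786O (log2 difference -0.74, limma adjusted p = 2.61e-05) and rose in CAKi-1 (0.58, limma adjusted p = 6.43e-04). Of 4 measured substrates, 0 were higher and 2 lower by the adjusted p alone in 786O and 0 higher and 1 lower in CAKi-1. PRKAA1, which encodes AMPK alpha 1, measured 91.9 ± 0.952 and 87.3 ± 4.67 TPM in WT and A4KO of 786O with limma adjusted p = 0.224. RNA levels do not show the amounts of these proteins.

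Of the binding partners of MAGE-D and necdin, MSX2, a homeobox factor, was called in 786O, from 0.356 ± 0.119 to 3.09 ± 0.255 TPM (log2 difference 1.59 ± 0.08, limma adjusted p = 1.29e-05). E2F1 rose from 32.9 ± 0.597 to 54.5 ± 1.13 TPM (log2 difference 0.71, limma adjusted p = 1.37e-05), and NGFR fell from 0.475 ± 0.070 to 0.039 ± 0.029 TPM (log2 difference -0.51, limma adjusted p = 1.92e-04). By the adjusted p alone, 4 of 9 measured partners were higher and 2 lower in 786O, and 0 of 7 passed in CAKi-1. Over all genes 61.0% passed so in 786O and 39.0% in CAKi-1. Of the SMC5/6 complex, 0 of 8 genes were called in either line, with 2 higher and 3 lower by the adjusted p alone in 786O and 3 lower in CAKi-1, and medians of -0.14 and -0.12. Of 19 genes of DNA methylation and silencing, 1 was called, ATRX, a chromatin remodeler, which fell in 786O from 49.2 ± 2.02 to 23.3 ± 1.76 TPM (log2 difference -1.05 ± 0.06, limma adjusted p = 2.67e-05). By the adjusted p alone, 7 were higher and 8 lower in 786O, with a median of 0.04, and 3 were higher and 2 lower in CAKi-1. DNMT3A, a DNA methyltransferase that sets new methylation, rose in 786O from 2.10 ± 0.069 to 3.20 ± 0.373 TPM (log2 difference 0.44, limma adjusted p = 0.00192). DNMT3B, the other enzyme of this kind, was 22.0 ± 1.01 TPM in WT and 11.04 ± 0.171 TPM in A4KO of the line (log2 difference -0.93, limma adjusted p = 1.04e-05), while DNMT1 was 90.0 ± 0.963 and 92.6 ± 0.104 TPM (limma adjusted p = 0.324). In CAKi-1, DNMT1 and UHRF1 were lowest in A4KO replicates 1 and 4, at 40.0 and 40.4 TPM and at 18.3 and 18.2 TPM, the libraries in which MAGED1, MAGED2 and TRO were highest, and the part of this in the member values was not tested. Among A4KO libraries these also held the most ANGPTL4 (7.26 and 6.47 TPM) and PECAM1 (6.17 and 4.46 TPM). They held the least E2F1 (10.4 and 10.8 TPM).

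The genes most like MAGEA6 over the 6 libraries of 786O, by Pearson's r of log2(TPM + 1) among 12749 genes, were TMSB10 (r = 0.999970), ASS1 (r = 0.999941) and BTD (r = 0.999917), and 1368 genes had r above 0.99. Those most like NDN were C9orf64 (r = 0.999946), SMARCE1 (r = 0.999859) and C12orf57 (r = 0.999857), with 886 genes above 0.99. The 6 libraries form 2 groups, so any gene with steady values inside each group scores high, and nothing is read from the order.

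Over the whole series, ANGPTL4 fell from 79.2 ± 7.06 TPM (SD, n = 4) to 4.47 ± 2.20 TPM (SD, n = 5) in CAKi-1 and from 18.8 ± 1.58 to 2.07 ± 0.185 TPM (SD, n = 3) in 786O, with log2 differences of -3.96 and -2.69. The deposited values of each library summed to between 961437 and 973887, and 0 were at exactly 0. In CAKi-1, 543 genes were called, 360 higher and 183 lower, and in 786O 1233 were, 393 higher and 840 lower. Under quantile normalization the share of higher calls in 786O was 42.7% in place of 31.9%. PAX8, KRT8, KRT18 and VIM, markers of renal epithelium and its tumors, were high in both lines, though KRT8 and KRT18 were called lower in A4KO of CAKi-1 and CA9 was called lower and PAX2 higher in A4KO of 786O. Immune markers with a row, 2 of 4, summed to at most 1.35 TPM and melanocyte markers, 2 of 3, to at most 4.75 TPM in any library. The single endothelial marker of 3 with a row, PECAM1, ran from 0.209 to 0.555 TPM in WT and from 1.54 to 6.17 TPM in A4KO of CAKi-1, and its part in the member values was not tested.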

How the data were processed

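RNA from WT and A4KO cells of CAKi-1 and 786O was measured by poly(A) RNA-seq in 15 libraries. Per the labels and methods of the study, reads were pseudoaligned to hg38 with Kallisto, and the authors deposited gene-level TPM for each line (versions and the filter on genes are not given in the sources used here). The unit was read from the values, which have nearly the same sum in every library, and all columns were used. The labels state 3000000 reads per library, which TPM does not record, so precision was judged from the spread between libraries. In R 4.3.3, limma 3.58.1 was fitted to log2(TPM + 1) for each line by itself, with a two-sided test of A4KO against WT, p-values adjusted by Benjamini-Hochberg across the table, no filter and no block. A gene was called at a log2 difference of at least 1 in size and an adjusted p of at most 0.05. The method was tested on simulated data. The members and all lists were chosen with earlier results of these data known. Named genes were the members, the other family genes, the called genes of the lists, some uncalled list genes for their role, ANGPTL4 and the 3 genes most like MAGEA6 and NDN. The likeness was planned over all 15 libraries with MAGEA3 and was instead computed for MAGEA6 and NDN in 786O, because of the rows given above. Sequence words and positions came from GENCODE release 44 and promoter windows from RefSeq. The window of 1 Mb and the sums of copies were chosen after seeing the data.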

Additional observations from a re-analysis of the deposited data

Results flagged for a closer look

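MAGEF1 in CAKi-1 A4KO replicate 5, at 41.3 TPM, stood apart from the other 4 A4KO libraries, which lay between 46.0 and 47.1 TPM. Such a gap is found by chance in about 5% of groups.

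Of the 90 member, family, list and target genes with a row in both lines, 12 had every A4KO library on 1 side of every WT library in CAKi-1 and on the opposite side in 786O. This is 13.3%, beside 16.1% of the 15247 genes with a row in both lines, so the count is not particular to these genes. Within the family, the log2 differences in CAKi-1 and 786O were 0.30 and -0.10 for MAGED1 and 0.28 and -0.56 for MAGEE1. Positive in CAKi-1 and negative in 786O were also the log2 differences of PEG10 (2.28 and -2.002), PECAM1 (1.55 and -0.46), PJA1 (0.58 and -0.74), UNC5B (0.14 and -0.52) and TET1 (0.10 and -0.52). Negative in CAKi-1 and positive in 786O were those of UHRF1 (-0.86 and 0.25), PLAGL1 (-0.67 and 0.16), USP7 (-0.33 and 0.35), EHMT1 (-0.28 and 0.58) and NIPA1 (-0.11 and 0.42). In CAKi-1, UNC5B, TET1 and NIPA1 did not pass by limma (adjusted p = 0.0972, 0.0863 and 0.0986), and MAGED1 carries no p-value as a member. The difference between the lines was not tested.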

How the results depend on the processing

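With a pseudocount of 0.1 in place of 1, the called genes numbered 1077 in CAKi-1 and 2095 in 786O, the family genes outside the members called were 1 in CAKi-1 (MAGEE1, log2 difference 1.35) and 1 in 786O (TRO, -1.18), and the log2 differences of MAGEA6 and NDN were -6.78 and 5.11. By the adjusted p alone, 6348 and 9874 genes passed, with 3 family genes outside the members in each line. Under quantile normalization the differences in 786O were -4.93 for MAGEA6, 0.87 for MAGEH1 and 0.57 for NSMCE3, and with neighbouring genes as the baseline -5.18, 0.87 and 0.38. Leaving out each library in turn gave 477 to 608 called genes in CAKi-1 and 1221 to 1243 in 786O, and 0 to 1 called family genes outside the members in 786O, the 1 being TRO without WT replicate 3 or without A4KO replicate 1. The difference of MAGED4B in 786O, 0.18 with all libraries, ran from -0.037 without A4KO replicate 3 to 0.298 without A4KO replicate 1. The cause was not tested. The filter at a mean of 1 TPM and trend and robust estimates kept the counts of all called genes in both lines within 1.5 times. A4KO replicates 2, 3 and 5 alone, run for CAKi-1, gave 412 called genes.

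The replicate numbers did not pair the libraries (correlations of deviations between -0.046 and 0.0197 in 786O and between -0.0621 and 0.135 in CAKi-1). With the replicate block, 603 genes were called in CAKi-1 and 1233 in 786O, and MAGED4 in CAKi-1 passed (limma adjusted p = 0.00979). In CAKi-1 the block also leaves out A4KO replicate 5, which has no WT library of its number, and leaving out that library without a block gave 603 calls too. The sum of MAGEA3 and MAGEA6 was not run, because MAGEA3 had no row. Limits are the read counts behind each value, which TPM does not keep and which matter most under 1 TPM, the copies of MAGEA6, and groups of 3 to 5 libraries from pools of clones.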
